A study of Arabidopsis thaliana with 32 samples.

Results

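The 10 genes described here set when an Arabidopsis thaliana plant flowers: FT (AT1G65480), TSF (AT4G20370), SOC1 (AT2G45660), FUL (AT5G60910), CO (AT5G15840), FLC (AT5G10140), FLM (AT1G77080), SVP (AT2G22540), SPL3 (AT2G33810) and SPL9 (AT2G42200). They were chosen by name and locus identifier as well-known flowering regulators, not by their values, and are 10 of 34262 genes in the table of transcript levels. For each gene the levels in 12 RNA-seq libraries and any m6A peaks in 7 peak lists were taken. m6A is the methylation of adenosine within RNA, mapped by sequencing RNA fragments bound by an antibody.

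The seedlings were 15 days old and grew in long days of 16 h light and 8 h dark. RNA-seq covered 4 groups of 3 replicates: plants labelled fip37 LEC1:FIP37 with NAA, the same line with mock treatment, wild type with NAA and wild type with mock treatment. Treatment lasted 3 h, with the synthetic auxin NAA (naphthaleneacetic acid) at 50 µM or mock. The m6A writer complex needs its subunit FIP37, and the label stands for plants mutant in fip37 whose FIP37 transgene is driven by LEC1, an embryo promoter. The m6A lists came from wild type with NAA (2 replicates), wild type with mock treatment (2 replicates), tmk4, a mutant of the receptor-like kinase TMK4 of auxin signalling, with NAA, and 2 lines with a 35S transgene, 35S:FIP37 and 35S:FIP373A, whose labels name no treatment. For tmk4 and the 35S lines 1 list per genotype was deposited for 2 replicates. The labels do not name the time of day at harvest, and whole seedlings were used, so fewer cells of a type and less RNA per cell cannot be told apart in any result.

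Flowering time is set where several pathways meet. Long days stabilise the protein CO in leaves, CO switches on FT in phloem companion cells, and the FT protein moves to the shoot tip, where it acts with the factor FD to switch on SOC1 and FUL. FLC, FLM and SVP are MADS-domain repressors that hold FT and SOC1 down, and the SPL factors, which are kept low by the microRNA miR156 in young plants, promote flowering with age.

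Relative sequencing depth, recovered from the steps that single reads leave in low values, ran from 83.6% to 151.5% of that in wild-type mock replicate 1. FIP37 itself had 57.9 to 120 RPKM in the libraries labelled fip37 LEC1:FIP37, against 11.3 to 23.3 RPKM in wild type, and was called higher with both NAA (log2 difference 2.18, SE 0.29, limma adjusted p = 0.000102) and mock treatment (2.64, SE 0.29, adjusted p = 3.83e-05). That goes against a loss of FIP37 transcript, and gene totals cannot tell the transgene from the native gene. These libraries are therefore called fip37-labelled here. Wild-type NAA replicate 3 was unlike its group. In it 1711 tested genes differed at least 2-fold, in RPKM + 1, from the log-scale mean of the other replicates. The same count was 358 and 321 genes for those. Its HSP17.6A level was 79.0 RPKM, against 2.88 and 2.62 RPKM in replicates 1 and 2. With the other check genes, HSP101 and FRK1, the sum was 85.4 to 113 RPKM across the wild-type NAA libraries. HSP101 and FRK1 together were therefore lower in replicate 3 than in replicates 1 and 2. Results that move without it are given with and without it.

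Levels are RPKM, reads scaled by gene length and by mapped reads. Across all 12 libraries SVP had the highest mean level (39.6 RPKM, range 31.7 to 49.7), then SOC1 (14.4, range 8.84 to 19.9), FLM (4.64, range 3.26 to 5.79) and SPL9 (1.80, range 0.831 to 3.11). The ranges of these 4 genes did not overlap. CO (0.607 RPKM), FUL (0.602), FT (0.575) and FLC (0.331) came next, with ranges that all overlapped, and TSF (0.0628) and SPL3 (0.0336) were lowest. With a filter of 1 RPKM on the mean, 4 of 10 genes (SVP, SOC1, FLM and SPL9) were among the 18072 tested, while 6 were not. The 6 were therefore also tested in a fit without the filter, over 26043 genes, which was added after their values were seen.

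**Figure D1:**
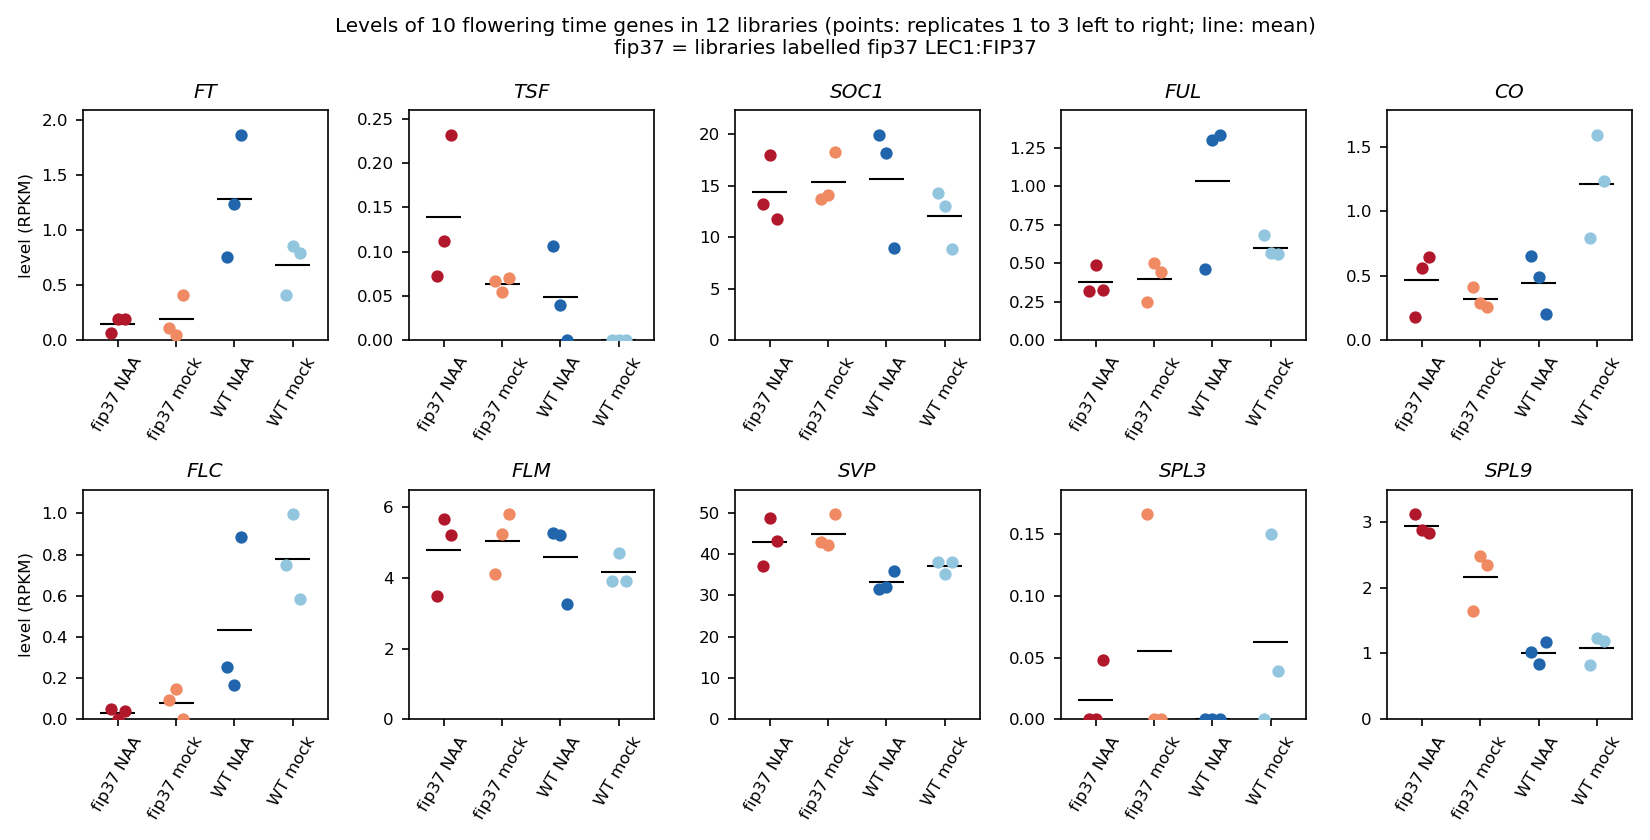
Level in RPKM (vertical axes, each from 0 and with its own range) of the 10 flowering time genes in each of 12 libraries, by group; points are libraries and lines are group means of 3. SPL9 is higher in all 6 fip37-labelled libraries (lowest 1.65 RPKM) than in all 6 wild-type libraries (highest 1.24 RPKM), and FLC is lower (highest 0.148 against lowest 0.165 RPKM).

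FT, the mobile flowering signal, was lower in the fip37-labelled line with NAA. Its levels were 0.0604, 0.187 and 0.193 RPKM in fip37-labelled NAA libraries, 0.111, 0.0448 and 0.411 RPKM in fip37-labelled mock libraries, 0.751, 1.23 and 1.86 RPKM in wild-type NAA libraries, and 0.404, 0.854 and 0.788 RPKM in wild-type mock libraries. The groups with NAA did not overlap between genotypes, and the mock groups met at fip37-labelled mock replicate 3. The reads behind these values numbered 9 and 10 in all in the fip37-labelled NAA and mock groups, and 101 and 45 in the wild-type NAA and mock groups. With NAA the mean was 0.147 ± 0.0749 RPKM in the fip37-labelled line and 1.28 ± 0.557 RPKM in wild type (SD, n = 3 each), a ratio of 0.114, and FT fell by 0.97 on the log2(RPKM + 1) scale (SE 0.18, limma without the filter, adjusted p = 0.00179). With mock treatment the ratio of means was 0.277 and the difference was -0.50 (SE 0.18, adjusted p = 0.052), which was not called, although a pseudocount of 0.1 RPKM or leaving out any 1 of 4 libraries brought it under the threshold (adjusted p between 0.0225 and 0.0397). In wild type FT was 1.88-fold higher on average with NAA than with mock treatment, but the groups overlapped and the difference was not called (0.42, adjusted p = 0.206).

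TSF, the closest relative of FT and also a flowering promoter, was near the limit of detection. It had 1, 2 and 4 reads in fip37-labelled NAA libraries, 1 read in each fip37-labelled mock library, 2, 1 and 0 reads in wild-type NAA libraries, and no read in any wild-type mock library. It was not called in any of the 5 comparisons, and such counts give no fold. With only the mock groups in the fit TSF was called higher in the fip37-labelled line (0.09, adjusted p = 0.00327), on 1 read per library.

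SOC1, the MADS-domain activator that FT and the repressors act on, was well expressed in every library. It had 13.2, 18.0 and 11.8 RPKM in fip37-labelled NAA libraries, 13.7, 14.1 and 18.3 RPKM in fip37-labelled mock libraries, 19.9, 18.2 and 8.90 RPKM in wild-type NAA libraries, and 14.3, 12.99 and 8.84 RPKM in wild-type mock libraries. All groups overlapped, and no comparison called it. The third replicate was the lowest of each wild-type group. In wild type the difference of NAA against mock was 0.31 (SE 0.27, adjusted p = 0.54), and 0.64 (adjusted p = 0.0419) without the third wild-type NAA library, so that the call rests on whether this library is kept. Between genotypes the differences were -0.07 with NAA (95% confidence interval -0.66 to 0.52) and 0.34 with mock treatment (-0.25 to 0.93).

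FUL, a MADS-domain factor that works beside SOC1 in the shoot tip and later in the fruit, was lower in the fip37-labelled line with NAA. It had 0.317, 0.490 and 0.325 RPKM in fip37-labelled NAA libraries, 0.250, 0.503 and 0.439 RPKM in fip37-labelled mock libraries, 0.463, 1.30 and 1.33 RPKM in wild-type NAA libraries, and 0.681, 0.564 and 0.561 RPKM in wild-type mock libraries. The first wild-type NAA library fell within the range of the fip37-labelled NAA group, while the mock groups did not overlap. With NAA FUL fell by 0.53 (SE 0.16, limma without the filter, adjusted p = 0.0229). This call was lost without the second or the third wild-type NAA library (adjusted p = 0.0923 and 0.0737), without the first or the third fip37-labelled NAA library (0.0685 and 0.0752), and with only these 6 libraries in the fit (0.125). With mock treatment the difference was -0.20 (SE 0.16, adjusted p = 0.377). NAA against mock in wild type gave 0.31 (adjusted p = 0.306), and 0.53 (adjusted p = 0.016) without the first wild-type NAA library.

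CO, the zinc-finger activator of FT in long days, was lower in the fip37-labelled line with mock treatment. It had 0.181, 0.561 and 0.644 RPKM in fip37-labelled NAA libraries, 0.409, 0.284 and 0.255 RPKM in fip37-labelled mock libraries, 0.648, 0.490 and 0.198 RPKM in wild-type NAA libraries, and 0.792, 1.59 and 1.24 RPKM in wild-type mock libraries. The wild-type mock group lay above all other libraries, and the other 3 groups overlapped each other. With mock treatment CO averaged 0.316 ± 0.0818 RPKM in the fip37-labelled line and 1.21 ± 0.400 RPKM in wild type (SD, n = 3 each), a ratio of 0.262, and it fell by 0.73 (SE 0.16, limma without the filter, adjusted p = 0.00661). With NAA the difference was 0.01 (95% confidence interval -0.35 to 0.38, adjusted p = 0.979). In wild type the NAA and mock groups did not overlap, at a ratio of means of 0.369, but the difference of -0.61 (SE 0.16) had an adjusted p of 0.0585; it passed the threshold after quantile normalization (adjusted p = 0.044) or without the first fip37-labelled NAA library (0.0453). The NAA effects of the 2 genotypes were not called different (0.75, adjusted p = 0.165).

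FLC, the MADS-domain repressor that prolonged cold silences, was lower in every fip37-labelled library than in every wild-type library. It had 0.0499, 0 and 0.0399 RPKM in fip37-labelled NAA libraries, 0.0921, 0.148 and 0 RPKM in fip37-labelled mock libraries, 0.256, 0.165 and 0.884 RPKM in wild-type NAA libraries, and 0.752, 0.996 and 0.586 RPKM in wild-type mock libraries. The fip37-labelled NAA and mock groups held 2 and 6 FLC reads in all, against 40 and 60 in the wild-type NAA and mock groups. With mock treatment FLC fell by 0.72 (SE 0.15, limma without the filter, adjusted p = 0.00492), a call that held in every alternative tried. None of these alternatives changed how reads were counted. With NAA it fell by 0.45 (SE 0.15, adjusted p = 0.0436), a call lost under 4 other settings and without any 1 of 10 libraries (adjusted p between 0.0506 and 0.159). The third wild-type NAA library carried 27 of the 40 reads of its group, and without it the NAA difference between genotypes was -0.23 (adjusted p = 0.0762). Without the same library NAA against mock in wild type was -0.55 (adjusted p = 0.00606), against -0.34 (adjusted p = 0.248) with it.

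FLM, a MADS-domain repressor related to FLC that acts with SVP in the response to ambient temperature, showed no called difference. Its levels lay between 3.49 and 5.66 RPKM in fip37-labelled NAA libraries, 4.11 and 5.79 RPKM in fip37-labelled mock libraries, 3.26 and 5.26 RPKM in wild-type NAA libraries, and 3.90 and 4.70 RPKM in wild-type mock libraries. The groups overlapped in every comparison, and the differences between genotypes were 0.06 with NAA and 0.22 with mock treatment (SE 0.19 each). FLM is related in sequence to the MAF genes, and how reads matching several genes were counted is not stated in the sources used here.

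SVP, a MADS-domain repressor that pairs with FLC and FLM, was higher in the fip37-labelled line with NAA. It had 37.1, 48.6 and 43.2 RPKM in fip37-labelled NAA libraries, 42.9, 42.1 and 49.7 RPKM in fip37-labelled mock libraries, 31.7, 32.0 and 35.9 RPKM in wild-type NAA libraries, and 38.2, 35.1 and 38.1 RPKM in wild-type mock libraries. Within each treatment the genotypes did not overlap. With NAA the level was 43.0 ± 5.80 RPKM in the fip37-labelled line and 33.2 ± 2.36 RPKM in wild type (SD, n = 3 each), a ratio of 1.29, and SVP rose by 0.36 (SE 0.12, limma adjusted p = 0.0311). The call was lost without the first or second wild-type NAA library or the second or the third fip37-labelled NAA library (adjusted p between 0.083 and 0.101), and with only these 6 libraries in the fit (0.125). With mock treatment the ratio of means was 1.21 and the difference of 0.26 (SE 0.12, adjusted p = 0.104) was not called, though median-ratio scaling (adjusted p = 0.0343) and quantile normalization (0.00479) brought it under the threshold.

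SPL9, a factor that promotes the change to the adult phase and flowering, was higher in the fip37-labelled line with either treatment. It had 3.11, 2.87 and 2.83 RPKM in fip37-labelled NAA libraries, 1.65, 2.48 and 2.35 RPKM in fip37-labelled mock libraries, 1.02, 0.841 and 1.17 RPKM in wild-type NAA libraries, and 0.831, 1.24 and 1.19 RPKM in wild-type mock libraries. No fip37-labelled library overlapped a wild-type one. With NAA the level was 2.94 ± 0.152 RPKM in the fip37-labelled line and 1.01 ± 0.166 RPKM in wild type (SD, n = 3 each), a ratio of 2.91, and SPL9 rose by 0.97 (SE 0.14, limma adjusted p = 0.000226). With mock treatment it rose by 0.59 (SE 0.14, adjusted p = 0.00633), at 2.16 ± 0.447 against 1.08 ± 0.222 RPKM (SD, n = 3 each). Both calls held in every alternative tried. In the fip37-labelled line the NAA and mock groups did not overlap, but their difference of 0.33 (SE 0.14) had an adjusted p of 0.557, and the NAA effects of the genotypes were not called different (0.38).

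SPL3, a small relative of SPL9 that also promotes flowering, was listed at 0 in 8 of 12 libraries. Its reads numbered 0, 0 and 1 in fip37-labelled NAA libraries, 3, 0 and 0 in fip37-labelled mock libraries, 0, 0 and 0 in wild-type NAA libraries, and 0, 3 and 1 in wild-type mock libraries. No fold was formed from such counts.

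**Figure D2:**
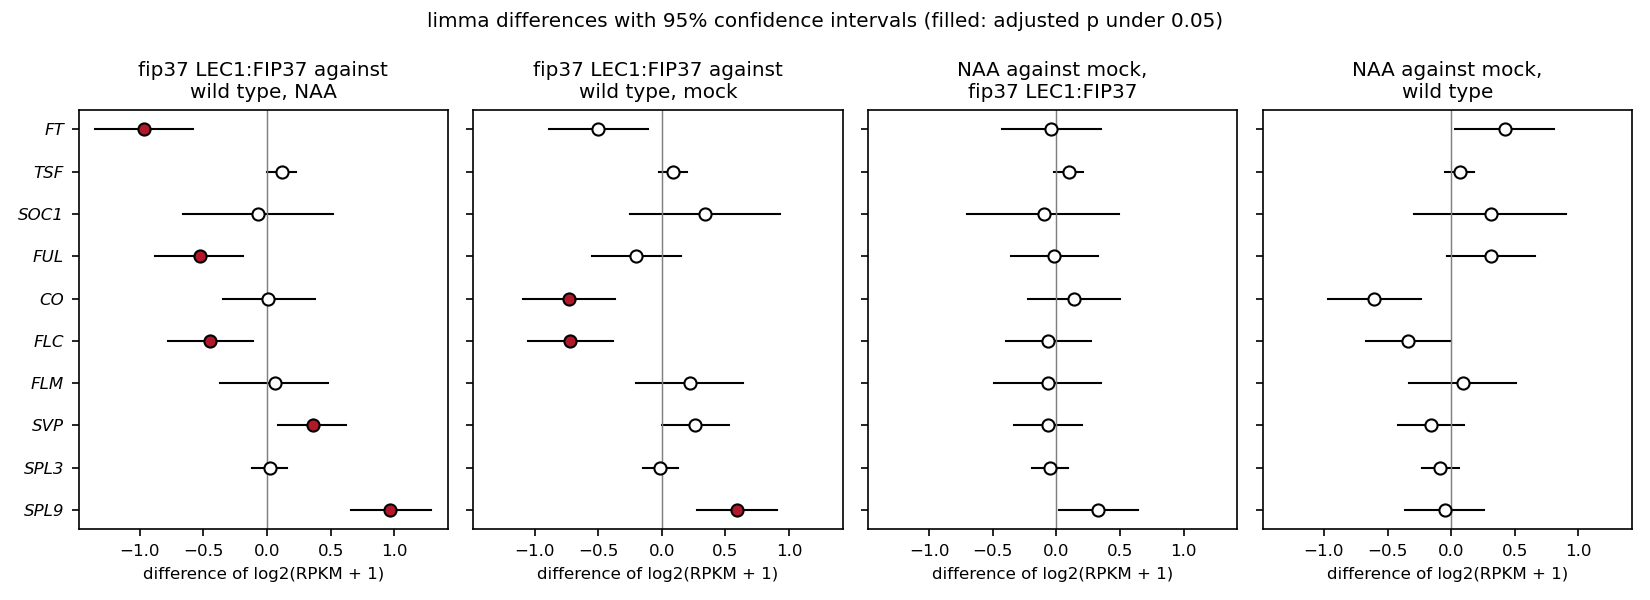
Difference of log2(RPKM + 1) with its 95% confidence interval from limma (horizontal axes) for each of the 10 genes in 4 comparisons of 3 libraries with 3; filled points have an adjusted p under 0.05. Filled points lie in the panels of fip37-labelled against wild type (5 genes with NAA, 3 with mock treatment), and neither panel of NAA against mock has one.

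Counted over the 10 genes in the fit without the filter, 2 rose (SPL9 and SVP) and 3 fell (FT, FUL and FLC) in the fip37-labelled line with NAA, where 33.8% of all 26043 genes were called (15.5% higher and 18.3% lower). With mock treatment 1 rose (SPL9) and 2 fell (CO and FLC), beside 30.2% over all genes, with 12.6% called higher and 17.7% called lower. Of the 4 genes that passed the filter, 2 were called higher with NAA (SPL9 and SVP) and 1 with mock treatment (SPL9), against 19.2% and 15.3% of all 18072 genes called higher (43.8% and 38.8% called in either direction). The counts were read against these shares: 5 and 3 of 10 genes lie near the background of each comparison and are no result about the 10 as a group. The median of the 4 filtered genes' differences was 0.21 with NAA and 0.30 with mock treatment, beside -0.05 and -0.07 over all tested genes. SPL9 (higher) and FLC (lower) were the 2 of 10 genes whose 6 fip37-labelled libraries did not overlap the 6 wild-type libraries, as did 10.4% (higher) and 13.2% (lower) of all 26043 genes.

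NAA against mock called none of the 10 genes in wild type, where 5.6% of genes were called in the fit without the filter and 8.35% with it. At an unadjusted limma p under 0.05, 3 of the 10 passed, namely FT, CO and FLC, beside 5241 of all 26043 genes. In the fip37-labelled line none of the 10 was called either, where 0.319% of genes were called (0.437% with the filter). At an unadjusted p under 0.05, 1 of the 10 passed (SPL9), beside 2124 of all 26043 genes. The test of the difference between these NAA effects called none of the 10, where 0.737% of all genes were called (1.69% with the filter). Here 1 of the 10 passed at an unadjusted p under 0.05 (CO), beside 3889 of all 26043 genes. These unadjusted counts are no result about the 10 as a group. Without the third wild-type NAA library, the fit with the filter called 4119 of 18072 genes for NAA in wild type, SOC1 among them, against 1509 with it. For the difference of NAA effects that fit called 2231, against 306.

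Where a gene lies over others bears on 3 of these levels. The annotation places a long noncoding RNA over the whole of FLC (AT5G01675) and over 97.6% of SPL3 (AT2G33815), and 2 further genes (AT5G15843 and AT5G15845) over 67.4% of CO. SPL9 holds the annotation of a microRNA over 2.72% of its length, and the other 6 genes are free of such overlap. Among protein-coding genes, 60.1% of 746 that were covered over more than 90% of their length were listed at 0 in all 12 libraries, against 13% of 19672 genes with no overlap. The libraries kept strand, but no source used here states whether the counting used it. The levels of FLC, SPL3 and CO, and their differences between groups, are therefore uncertain, and no alternative run here changed the counting. By the same counting, the overlapping genes themselves had at most 0.19 RPKM at FLC, 0.188 RPKM at SPL3 and 1.07 RPKM at CO.

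**Figure D3:**
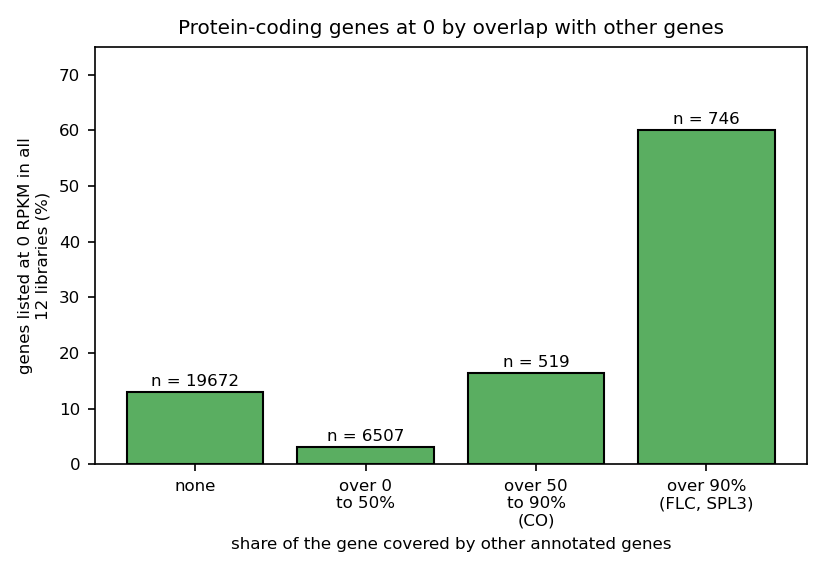
Share of protein-coding genes listed at 0 RPKM in all 12 libraries (vertical axis, %) by how much of the gene other annotated genes cover (horizontal axis), with the number of genes above each bar. The share is 60.1% in the class of FLC and SPL3 and 16.4% in that of CO, against 13% with no overlap.

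m6A peaks were found on 4 of the 10 genes: SOC1, SVP, FLM and SPL3. Fold enrichments, pileups and q-values are the authors' values for each peak, and positions are in the TAIR10 build. On SOC1 the peaks at chr2:18807597-18807796 in the second wild-type NAA list, chr2:18807572-18807792 in the first mock list and chr2:18807591-18807809 in the second mock list had 1 common summit at base 18807737. Their fold enrichments were 3.15 with NAA, and 2.91 and 3.32 with mock treatment, above 93.2%, 88.4% and 94.4% of the peaks in the same lists. The first wild-type NAA list lacked this peak and held another one with its summit 594 bp away (1.99-fold, -log10 q of 4.71). SOC1 thus had a shared peak in both mock replicates but not in both NAA replicates, which, with lists thresholded separately, does not test a change.

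On SVP a peak stood in each of the 4 wild-type lists. The summit in the second mock list (-log10 q of 1.6) lay 162 to 173 bp from the other summits, which lay within 11 bp of each other. The fold enrichments were 2.36 and 3.20 with NAA and 2.54 and 1.45 with mock treatment, and the NAA replicates overlapped by 98.9% of the shorter peak (chr2:9582186-9582453 and chr2:9582064-9582450). The mock replicates overlapped by 99 bp, or 46.9% of the shorter, just under the 50% required for a shared peak, and the weaker of them ranked above 11.1% of its list. FLM had a peak in the second replicate of each treatment, of 2.98-fold with NAA and 2.85-fold with mock treatment, with summits 9 bp apart, at 93.8% and 94.0% of the gene's length from its lower coordinate. SPL3 had a peak in the first wild-type NAA list alone (chr2:14305560-14305963, 2.23-fold, pileup 139 at the summit), although the 3 wild-type NAA RNA-seq libraries listed it at 0 RPKM. The long noncoding RNA annotated over SPL3 covers most of the gene, so from which of them these fragments came cannot be told apart.

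In single lists, 3 of the 10 genes had a peak in each wild-type NAA list, 2 in the first mock list and 3 in the second. Over a background of 17962 genes the shares were 22.8% and 27.3% with NAA, and 28.7% and 30.5% with mock treatment. That background holds only annotated genes that passed the 1 RPKM filter. As 6 of the 10, SPL3 among them, did not pass, the counts and the shares cover unlike sets. Of the 4 that passed, SOC1 and SVP had a peak in every wild-type list, FLM in the second of each treatment and SPL9 in none. By the rule of a peak in both replicates, 1 of the 10 genes was counted with NAA (SVP), where 17.2% of 17962 genes were, and 1 with mock treatment (SOC1), where 21.7% were. None of the 10 had a peak in the list of tmk4 (6.14% of the 17962 genes), 35S:FIP37 (12.9%) or 35S:FIP373A (11.6%). FT, TSF, FUL, CO, FLC and SPL9 had no peak in any list. In wild type these 6 had group means of at most 1.28 RPKM with NAA and 1.21 RPKM with mock treatment, against 33.2 and 37.1 RPKM for SVP. A missing peak on them was not separated from low input.

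**Figure D4:**
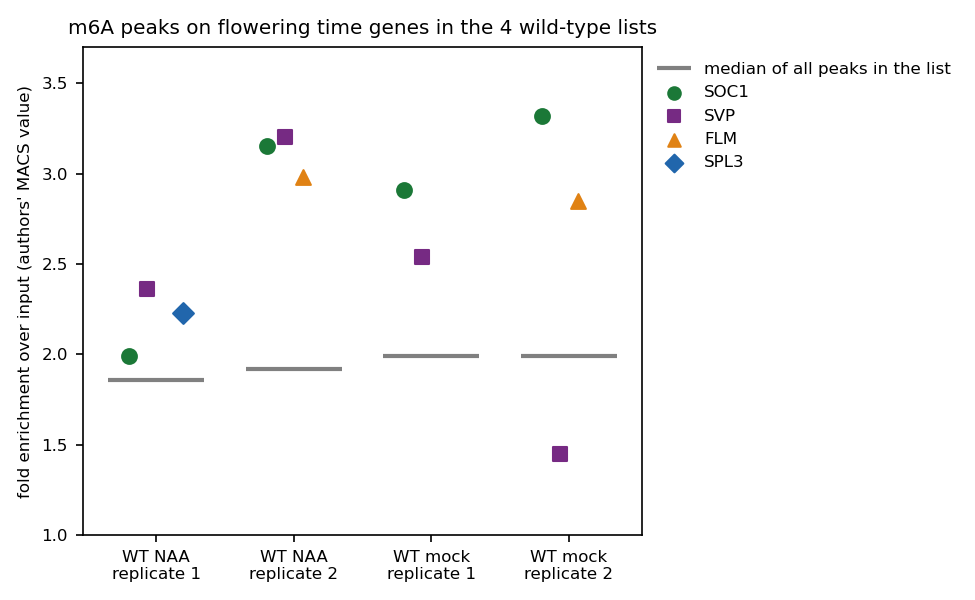
Fold enrichment over input of each m6A peak (points, the authors' values, vertical axis from 1) on the flowering time genes in the 4 wild-type lists, with the median of all peaks in that list (grey lines, 1.86 to 1.99). SOC1 and SVP have a peak in all 4 lists, FLM in the second list of each treatment and SPL3 in 1 list.

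The other genes of flowering were taken from 9 lists with 113 genes, of which 93 were tested. In the fip37-labelled line with NAA 20 rose and 21 fell (44.1% called, median difference 0.01), and with mock treatment 15 rose and 19 fell (36.6%, median 0.04), against 43.8% and 38.8% of all tested genes. The list with the highest share called in both comparisons was that of the AP2-like repressors, which hold FT down and are themselves targets of the microRNA miR172. Of 6 tested, 5 rose with NAA and 6 with mock treatment, and their median difference was 0.78 and 0.84, beside -0.05 and -0.07 over all genes. With NAA 3 were called without the second wild-type NAA or the second fip37-labelled NAA library, or with only the groups compared in the fit. TOE1 had 29.4, 38.4 and 35.6 RPKM in fip37-labelled NAA libraries, against 10.8, 9.41 and 6.41 RPKM in wild-type NAA libraries (1.86, SE 0.18, adjusted p = 1.37e-05). SNZ and TOE2 rose by 1.1 and 1.07 with NAA, and by 1.18 and 1.04 with mock treatment. In wild type with NAA and mock treatment TOE3 had means of 0.951 and 0.825 RPKM, and SNZ of 0.90 and 1.08 RPKM. TOE3 thus passed the filter of 1 RPKM only through its fip37-labelled level (mean 1.43 RPKM with either treatment), so its place among the tested genes depended on that level.

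**Figure D5:**
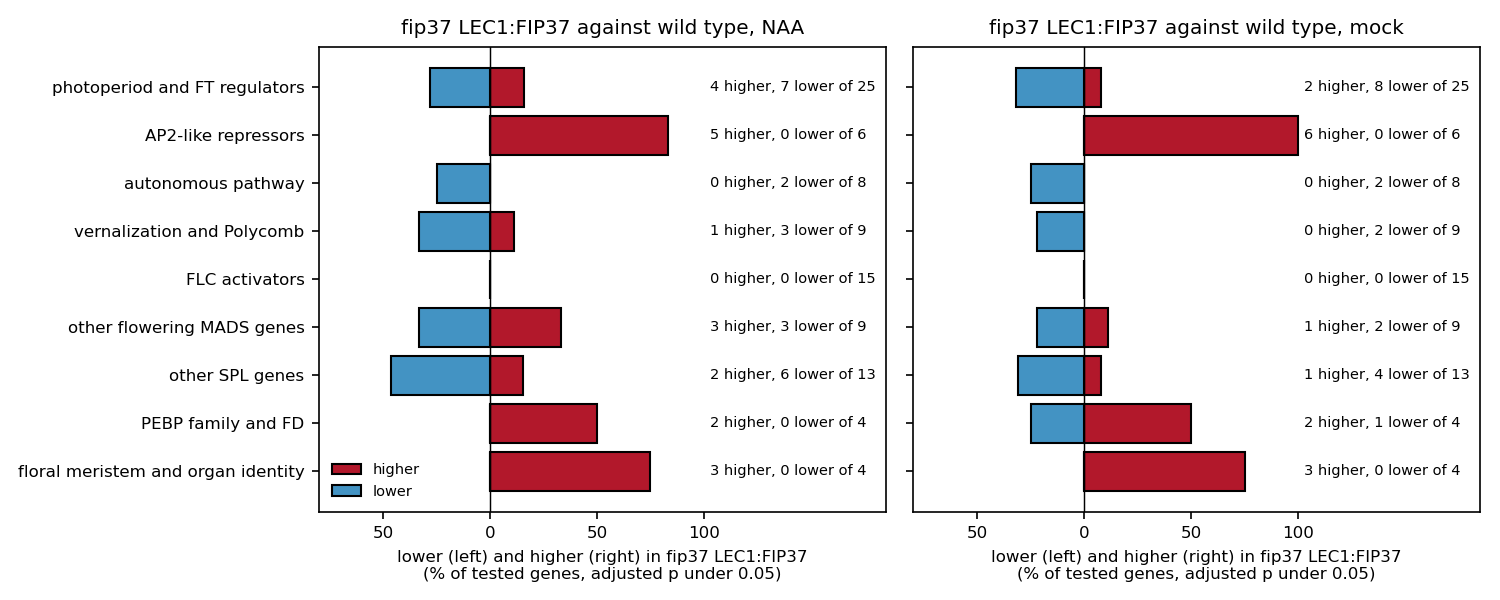
Share of tested genes in each of 9 flowering lists that were called higher (right of 0) or lower (left of 0) in the fip37-labelled line against wild type, with NAA and with mock treatment. The AP2-like repressors have 5 and 6 of 6 genes higher and none lower, and the FLC activators have none of 15 called. TOE3, 1 of these 6 repressors, passed the filter only through its fip37-labelled level.

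Of 25 tested genes of the photoperiod pathway and other FT regulators, 4 rose and 7 fell with NAA, and 2 rose and 8 fell with mock treatment. The shares called, 44.0% and 40.0%, lie near those of all tested genes. GI and FKF1, which together remove repressors of CO, fell by 1.14 and 1.88 with NAA and by 1.06 each with mock treatment. FKF1 had 0.870, 1.79 and 1.28 RPKM in fip37-labelled NAA libraries, against 10.5, 8.00 and 4.76 RPKM in wild-type NAA libraries. COL2, a relative of CO that other genes cover over 60.8% of its length, rose by 1.24 with NAA and had a difference of 0.64 with mock treatment (adjusted p = 0.147). PHYA, the far-red light receptor that stabilises CO, fell by 1.08 with mock treatment and had a difference of -0.40 with NAA (adjusted p = 0.159). TEM1 and TEM2, repressors of FT, fell by 0.66 and 1.09 with NAA and by 0.87 and 0.70 with mock treatment. PFT1, a Mediator subunit that promotes FT, fell by 0.89 and 0.74.

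Several of these genes follow the clock. Of 10 tested clock genes 3 fell in the fip37-labelled line with each treatment, a share of 30% beside 43.8% and 38.8% of all tested genes, so the count is no result about the clock genes as a group. LUX fell by 1.72 with NAA and 1.78 with mock treatment, TOC1 by 1.54 and 1.30, and ELF3 by 0.47 and 0.67. Their part in the levels of CO and FT was not tested.

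By limma 0 of 15 FLC activators were called with either treatment (median -0.03 with NAA and 0.07 with mock treatment). At an unadjusted p under 0.05, 0 passed with NAA and 2 with mock treatment, beside 9347 and 8673 of all 18072 tested genes. Under other scalings, with only the groups compared, or without the first or the third wild-type NAA library, at most 1 was called with NAA and at most 2 with mock treatment. Of 8 tested genes of the autonomous pathway, which keeps FLC low, 2 fell with NAA (FLD by 0.58 and FPA by 0.38) and 2 with mock treatment (FVE by 0.40 and FLD by 0.38). That is 25.0%, below the 43.8% and 38.8% of all tested genes. These calls were not stable: with NAA 1 was left without any 1 of 11 libraries and 3 were called without the third wild-type NAA library, and with mock treatment 0 or 1 was left without any 1 of 8 libraries. Among 9 tested genes of vernalization and Polycomb silencing, 1 rose and 3 fell with NAA, and 2 fell with mock treatment. The shares called were 44.4% and 22.2%, against 43.8% and 38.8% of all tested genes. EMF1, a Polycomb protein, fell by 0.55 with NAA and had a difference of -0.33 with mock treatment (adjusted p = 0.111). VEL1 and VRN1 fell with both treatments, by 0.49 and 0.47 with NAA and by 0.97 and 0.80 with mock treatment, and VRN5 rose by 0.36 with NAA. With NAA 2 of these 9 were called without the second wild-type NAA library and 0 with only the groups compared in the fit.

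Of 13 other SPL genes tested, 2 rose and 6 fell with NAA, and 1 rose and 4 fell with mock treatment. The shares called were 61.5% and 38.5%, against 43.8% and 38.8% of all tested genes. SPL4, a close relative of SPL3, rose by 1.24 with NAA and 1.1 with mock treatment. SPL8, known for its part in fertility, fell by 0.66 and 1.04, and SPL12 by 0.78 and 0.72. SPL8 passed the filter of 1 RPKM only through wild type, as its fip37-labelled means were 0.627 RPKM with NAA and 0.309 RPKM with mock treatment. SPL13A fell by 0.68 with NAA and had a difference of -0.30 with mock treatment (adjusted p = 0.0745). With only the groups compared in the fit, 5 of the 13 were called with NAA and 8 with mock treatment. Of the relatives of FT, ATC, which delays flowering, rose by 1.26 (adjusted p = 0.0205) with NAA and 2.34 (adjusted p = 0.000642) with mock treatment. It had 19.8, 35.2 and 22.5 RPKM in fip37-labelled NAA libraries, 12.6, 16.1 and 28.4 RPKM in fip37-labelled mock libraries, 10.3, 4.77 and 18.8 RPKM in wild-type NAA libraries, and 3.07, 2.56 and 2.63 RPKM in wild-type mock libraries. Of 4 tested genes of this family with FD, 2 were called with NAA and 3 with mock treatment, and 1 with NAA without the second wild-type NAA or the second fip37-labelled NAA library, or with only the groups compared. FDP, a relative of FD, rose by 0.84 with NAA and 0.80 with mock treatment, whereas FD fell by 0.63 with mock treatment and had a difference of -0.38 with NAA (adjusted p = 0.13). The mean of FDP over the 12 libraries, 1.06 RPKM, was just above the filter, so that it was tested leaned on its higher, fip37-labelled level.

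Of 9 tested flowering MADS genes beside the 10, 3 rose and 3 fell with NAA, and 1 rose and 2 fell with mock treatment. The shares called were 66.7% and 33.3%, against 43.8% and 38.8% of all tested genes. The 6 called with NAA were 3 without the second wild-type NAA library. The 3 called with mock treatment were 1 without the first or the second wild-type mock library, or the second or the third fip37-labelled mock library. AGL14, a relative of SOC1, fell by 1.46 with NAA and 0.77 with mock treatment, and MAF5, a relative of FLC and FLM, by 0.81 and 1.05. AGL15, which delays flowering, rose by 0.98 and 0.66. AGL24, a partner of SOC1, fell by 0.66 with NAA and had a difference of -0.43 with mock treatment (adjusted p = 0.128). AGL19, a flowering promoter, rose by 0.54 with NAA and had a difference of 0.24 with mock treatment (adjusted p = 0.357). AGL14 and AGL19 passed the filter of 1 RPKM only through the genotype where each was higher. With NAA and mock treatment AGL14 had means of 0.477 and 0.446 RPKM in the fip37-labelled line, and AGL19 of 0.825 and 0.697 RPKM in wild type. Of 4 tested genes of floral meristem and organ identity, 3 rose with each treatment, led by LMI1 (1.45) with NAA and SEP3 (2.12) with mock treatment. Over all tested genes 19.2% and 15.3% were called higher. In the fit without the filter 7 of all 13 rose with each, where 15.5% and 12.6% of all genes did. The mean of LMI1 over the 12 libraries, 1.24 RPKM, was near the filter, so that it was tested leaned on its higher, fip37-labelled level.

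NAA against mock in wild type called 5 of the 93 genes (5.38%, against 8.35% of all tested). ATC (1.54), SEP3 (0.70) and SPL13A (0.55) rose, and NF-YB3 and VEL1 fell by 0.55 and 0.50. The count moved from library to library, with 19 called without the third wild-type NAA library and 0 without the first or the third wild-type mock library. The calls over all 18072 tested genes moved too. They numbered 4119 without the third wild-type NAA library, and 651 and 477 without the first and the third wild-type mock library, against 1509 with all libraries. In the fip37-labelled line NAA called 0 of the 93 by limma, and 4 passed at an unadjusted p under 0.05, beside 1502 of all 18072 tested genes.

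Markers of the tissues in which these genes act were read beside all tested genes, of which 43.8% were called with NAA and 38.8% with mock treatment. The summed level of 6 phloem markers was 124 to 182 RPKM in fip37-labelled NAA libraries, 128 to 172 RPKM in fip37-labelled mock libraries, 99.4 to 148 RPKM in wild-type NAA libraries and 198 to 210 RPKM in wild-type mock libraries. The sugar transporters SWEET11 and SWEET12 (means 67.7 and 39.2 RPKM) made up most of this sum. With NAA 1 of the 6 was called (SWEET11, which rose by 0.82), at a list median of 0.06. With mock treatment NAKR1 rose by 1.05 and SWEET12 fell by 0.99 (list median -0.08). The shares called, 16.7% and 33.3%, lie below those of all tested genes. SUC2, which marks the companion cells that make FT, was not called (0.20 with NAA and 0.40 with mock treatment). Of 3 tested shoot meristem markers, STM rose by 2.48 and KNAT1 by 1.48 with NAA, and by 1.95 and 1.32 with mock treatment, while CLV1 fell by 0.68 with mock treatment. The defining meristem markers WUS and CLV3 were not tested: WUS had 0.914 to 2.23 RPKM in fip37-labelled libraries, against 0 to 0.104 RPKM in wild type, and CLV3 had 0.265 to 0.908 RPKM, against 0 to 0.12 RPKM in wild type. Of 7 leaf photosynthesis markers, 6 rose with NAA and 5 with mock treatment, with sums of 25700 to 31000 and 24700 to 31900 RPKM in fip37-labelled NAA and mock libraries, against 13900 to 18500 and 15300 to 18900 RPKM in wild type with NAA and mock treatment. The 8 root markers summed to 750 to 841 and 865 to 1260 RPKM in fip37-labelled NAA and mock libraries, against 259 to 348 and 440 to 519 RPKM in wild type with NAA and mock treatment. That sum was carried by 1 gene, PYK10 (mean 616 RPKM), which rose by 1.51 with NAA and 1.14 with mock treatment. Of the other tested root markers, GL2 fell by 1.44 with NAA and 2.1 with mock treatment, SHR rose by 0.65 with NAA, and COBL9 and SCR fell by 0.81 and 0.39 with mock treatment. The median of the 5 tested was -0.04 with NAA and -0.39 with mock treatment. The part of these markers in the levels of the 10 genes was not tested.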

How the data were processed

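The authors deposited RPKM values for each gene in each RNA-seq library. Per the submitters' processing notes, reads were aligned with STAR 2.5.3a and the build was TAIR10. No source used here states how reads were counted or whether strand was used. Per the file headers, the authors called the 4 wild-type peak lists with MACS 2.2.6, 1 replicate at a time with its input as control, at a q-value of 0.05. Pileup signal, fold enrichment, and the p-value and q-value as −log10 are deposited values of the authors. The other 3 lists, as deposited, give an enrichment ratio and a column whose values look like a p-value or q-value, and their caller is not named. RPKM columns that carry a genotype and no treatment were taken as mock.

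The limma-trend test (limma 3.58.1, R 4.3.3) was run on log2(RPKM + 1), which understates changes of low genes, in 1 model of 12 libraries in 4 groups of 3, with Benjamini-Hochberg adjustment over all genes tested; adjusted p under 0.05 was called. The script was tested on simulated data. Low RPKM values fell on whole-read steps, so each library's relative depth and the reads behind each gene were recovered, all within 0.05 of a whole number. Totals are unknown, so no counting interval is given. A wild-type peak belonged to the gene holding its summit, a peak of the other lists to a gene holding 50% of it, by the TAIR10.1 annotation, used for names, gene spans and overlap only (32548 of 34262 identifiers matched). Replicates shared a peak at an overlap of 50% of the shorter.

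All 10 genes are named; from each other list, up to 5 called genes per comparison, the largest first, with their values in the other treatment, and markers and check genes beside them. The genes, the lists and the tests were chosen with earlier results of these data known. Alternatives were a pseudocount of 0.1 RPKM, no filter, median-ratio and quantile scaling, a replicate block, only the groups compared, each library left out, stricter q-values and other overlaps. The series design calls the samples biological replicates. Whether replicate numbers pair the libraries is unclear, and the main model did not use them.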

Additional observations from a re-analysis of the deposited data

How the results depend on the processing

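The levels of FT, TSF, FUL, CO, FLC and SPL3 rest on few reads. For CO, FLC and SPL3, sequencing depth and the counting over overlapping genes cannot be told apart as reasons. SPL9 with both treatments, FT with NAA, and CO and FLC with mock treatment kept their fip37-labelled against wild-type calls in every alternative run, and no result reversed. No alternative changed how reads over overlapping genes were counted, which bears on CO and FLC. Of the 4 filtered genes, 1 was called with mock treatment, against 3 without the filter, 2 with median-ratio scaling, 2 with quantile normalization and 2 with only the groups compared. With NAA 2 were called, against 5 without the filter and 1 with only the groups compared. Of all 10 genes, 3 were called with mock treatment, against 5 with only the groups compared, and 5 with NAA, against 2. NAA against mock in wild type called 0, against 1 after quantile normalization. Leaving out 1 library gave 0 to 1 of 4 and 0 to 1 of 10 called for NAA in wild type, 1 to 2 of 4 and 2 to 5 of 10 for fip37-labelled against wild type with NAA, and 3 to 4 of 10 with mock treatment. Deviations of same-number mock and NAA libraries from their group means correlated at 0.28, -0.05 and 0.30 in wild type. In the fip37-labelled line the values were 0.40, -0.10 and 0.08. Mock and NAA libraries of unlike number correlated at -0.35 to 0.33 in wild type and at -0.34 to 0.24 in the fip37-labelled line. Whether replicate numbers pair the libraries is therefore unclear. The replicate block called FT with mock treatment (limma adjusted p = 0.0134) and lost FLC with NAA (0.0679), giving 4 of 10 with each treatment. Over all genes, NAA in wild type called 605 higher and 904 lower, against 872 and 683 with median-ratio scaling. Peaks in both replicates were on 1 of the 10 genes with NAA. Replicate 1 alone gave 3 (22.8% of the 17962 background genes) and replicate 2 alone gave 3 (27.3%). With mock treatment 1 had a peak in both replicates. Replicate 1 alone gave 2 (28.7%), replicate 2 alone gave 3 (30.5%), and 1 bp of overlap gave 2. The cause of these shifts was not tested.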

Other observations

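Peaks were also counted on the other flowering genes. Of 113 genes in 9 lists, 17 had a shared peak in both wild-type NAA replicates and 23 in both wild-type mock replicates. Over the 17962 background genes the shares were 17.2% and 21.7%. Only 93 of the 113 had passed the 1 RPKM filter that all background genes passed, so the sets are unlike. By the same rule 16 genes had a shared peak in both replicates of each treatment. Those 16 include the FLC activators PIE1 (top fold enrichment 3.13 and 2.12 with NAA, 2.54 and 2.54 with mock treatment), EFS (2.29 and 2.87 with NAA, 3.64 and 2.53 with mock treatment), ELF7, ELF8 and ARP6. The photoreceptor gene PHYB had top folds of 2.03 and 2.57 with NAA, and 2.76 and 3.24 with mock treatment. The list of tmk4 held peaks on 6 of the 113 genes (CLF, COP1, CRY2, ELF7, LHP1 and PHYB), and on 6.14% of the 17962 genes. The list of 35S:FIP37 held peaks on 8 (12.9% of the 17962 genes), among them TEM1, TEM2 and SPL14, and that of 35S:FIP373A on 6 (11.6%). How these lists were called is not stated in the sources used here, so their counts were not compared. The genes were chosen after their values were seen.

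Of the genes in the 9 lists that lie wholly within another annotated gene, COL1, CIB1 and SPL15 were listed at 0 RPKM in all 12 libraries, whereas SPL5 (mean 0.228 RPKM) was above 0 in all 12. COL1 nevertheless had a peak in both 35S lists.

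Over the 12 libraries the genes whose log2(RPKM + 1) followed FT most closely were AT3G23170 (Pearson r = 0.97), DOF2 (0.97) and SCL1 (0.96). For SOC1 they were AT4G25835 (0.95), AT5G36930 (0.95) and AT3G10130 (0.94), and for FLC AGP13, AT1G05835 and HTA9 (0.97 each). The 12 points share groups and libraries, and these are the highest of 18072 genes, so the values are a description.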
